A study of Mus musculus with 14 samples.

Results

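The genes of the mitochondrial protein import machinery examined here are the translocases of the outer membrane (Tomm genes) and of the inner membrane (Timm genes), with the small Tim chaperones of the intermembrane space. They were taken by name, as every mouse gene in the table whose symbol is Timm or Tomm followed by a number, leaving out Timmdc1 and pseudogenes. The rule found 26 of 35275 genes: 10 Tomm genes, 15 Timm genes and the antisense RNA Tomm6os. Of these, 22 reached at least 1 FPKM in at least 3 of the 14 libraries and were tested, so no count over those 22 stands for all 26.

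The libraries, 1 per animal, were made from the brown adipose tissue of C57BL/6 mice aged 8 weeks. All mice carried floxed Lrpprc alleles (LrpprcFF). Knockouts (LrpprcBKO) also carried Ucp1-Cre, which expresses the recombinase from the promoter of the brown fat uncoupling protein, and controls did not. Lrpprc encodes an RNA-binding protein of mitochondria that stabilises mitochondrial messenger RNA. Animals were housed at 22 °C (room temperature, 4 knockouts and 4 controls) or at 30 °C (thermoneutrality, 3 knockouts and 3 controls). The labels name brown adipocytes, but the RNA came from homogenized tissue, so cells without Ucp1 contributed, and in such bulk RNA fewer cells of a type and less RNA per cell cannot be told apart.

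Nearly all mitochondrial proteins are made in the cytosol and enter through the TOM complex, where Tomm20, Tomm22 and Tomm70a recognise precursors and Tomm40 forms the pore. From there the TIM23 complex takes proteins with a presequence across or into the inner membrane, and the small Tim chaperones carry hydrophobic proteins to the TIM22 complex, which inserts carriers. In brown adipose tissue the load on this route is high, since the tissue is packed with mitochondria and the uncoupling protein and metabolite carriers are inner membrane proteins.

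Promoters were read for 23 of the 26 genes from RefSeq on GRCm38.p6 (300 bases around each start site), and Timm21, Tomm7 and Tomm40l are named only. Both strands were searched for letters bound by factors of nuclear-encoded mitochondrial genes: GCGCANGCG for NRF1, TCAAGGTCA for the oestrogen-related receptors (ERR), CCGGAAG for the GABP family, and TGATGNAAN for the amino acid response. CCGGAAG was in promoters of 9 of the 23 genes (39.1%), against 9.12% of all 27025 promoters and 18.4% of the 9733 promoters of expressed genes. GCGCANGCG was in 3 (Timm13, Timm8b and Tomm20; 13.0%, against 6.47% and 14.1%), TCAAGGTCA in 1 (Timm8b; 4.35%, against 0.407% and 0.288%), and TGATGNAAN in 0 (against 4.04% and 2.22%). A match describes letters only, not a bound site. The first pair is Timm9 and its partner Timm10. Timm9 (chr12:71136626-71136925, minus strand), whose transcript was among those lower in knockouts at 30 °C, holds none of the 4 motifs. Nor do Timm17a, Timm17b, Timm22, Timm50, Timm8a1, Tomm40 and Tomm5, which the main fit called in neither knockout comparison. Promoters of Tomm7, Tomm40l and Timm21, also lower at 30 °C, were not read. A link between motifs and the knockout effect was not tested. Timm10 (chr2:84826771-84827070, plus strand) holds CCGGAAG on both strands just after the start site, where 2 matches overlap, and once before it. Capitals mark motif matches.
Timm9: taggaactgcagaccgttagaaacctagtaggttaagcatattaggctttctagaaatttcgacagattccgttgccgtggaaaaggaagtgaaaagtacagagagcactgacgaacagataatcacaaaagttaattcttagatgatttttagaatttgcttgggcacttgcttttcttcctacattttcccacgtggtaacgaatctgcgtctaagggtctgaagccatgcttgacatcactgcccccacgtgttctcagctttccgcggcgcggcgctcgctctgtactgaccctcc
Timm10: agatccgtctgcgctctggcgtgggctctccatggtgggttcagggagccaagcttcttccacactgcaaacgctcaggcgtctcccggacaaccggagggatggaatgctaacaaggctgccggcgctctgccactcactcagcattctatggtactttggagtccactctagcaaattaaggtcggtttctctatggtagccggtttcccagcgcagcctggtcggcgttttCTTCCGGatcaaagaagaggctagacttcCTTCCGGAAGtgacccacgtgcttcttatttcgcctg
Timm44 (chr8:4275856-4276155, minus strand), also lower at 30 °C, holds none of the motifs. Tomm22 (chr15:79670618-79670917, plus strand) holds overlapping CCGGAAG matches 47 and 44 bases before the start site, with another from base 6 after it. Timm8b (chr9:50603651-50603950, plus strand) is shown because it holds 3 of the 4 motifs, with the ERR letters 96 bases before the start, the GABP letters 12 bases before it and the NRF1 letters from base 20 after it.
Timm44: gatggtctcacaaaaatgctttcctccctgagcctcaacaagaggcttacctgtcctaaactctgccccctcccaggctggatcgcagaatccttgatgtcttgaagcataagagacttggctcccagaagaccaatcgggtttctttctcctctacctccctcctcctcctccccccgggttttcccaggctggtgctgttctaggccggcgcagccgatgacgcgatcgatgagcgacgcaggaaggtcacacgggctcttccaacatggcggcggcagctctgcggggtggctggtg
Tomm22: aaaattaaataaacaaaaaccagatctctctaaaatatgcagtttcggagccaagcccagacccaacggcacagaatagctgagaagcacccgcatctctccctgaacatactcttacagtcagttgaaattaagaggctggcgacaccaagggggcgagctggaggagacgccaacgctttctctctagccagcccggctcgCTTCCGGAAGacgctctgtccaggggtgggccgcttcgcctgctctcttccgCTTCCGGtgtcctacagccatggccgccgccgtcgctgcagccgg
Timm8b: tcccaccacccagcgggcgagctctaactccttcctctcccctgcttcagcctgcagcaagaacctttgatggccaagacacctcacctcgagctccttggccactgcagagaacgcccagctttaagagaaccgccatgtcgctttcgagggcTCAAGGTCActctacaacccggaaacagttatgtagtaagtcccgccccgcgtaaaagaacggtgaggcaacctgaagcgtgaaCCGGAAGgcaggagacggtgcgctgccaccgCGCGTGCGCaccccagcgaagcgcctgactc

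The targeted gene followed the labels. Lrpprc was 8.85 to 11.2 scaled FPKM in knockouts and 25.3 to 57.3 in controls at 22 °C (24.6% of the control mean, exact two-sided permutation p = 0.0286, the smallest that 4 against 4 allows), and 4.97 to 8.56 against 30.3 to 32.8 at 30 °C (22.0%, exact p = 0.1, the smallest that 3 against 3 allows). Recovered depth was 15.9 to 21.3 M fragments per library. All 8 brown adipocyte markers were present. All 22 °C animals had Ddx3y, a Y-linked gene, at 14.5 to 23.1 deposited FPKM and Xist, expressed from the inactive X, at no more than 0.0141. At 30 °C Xist was 9.01 to 18.4 and Ddx3y no more than 0.0244, so housing temperature and sex cannot be told apart, while each knockout comparison is within 1 temperature.

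Levels per length spanned a wide range in 22 °C controls, in scaled FPKM (n = 4, mean ± SD). Timm23, the channel of the TIM23 complex, was highest at 156 ± 22.2, followed by the small Tim chaperone Timm13 (152 ± 40.6), Tomm5 (119 ± 17.4), Tomm7 (95.2 ± 10.3), Timm50 (94.97 ± 8.44), Timm8b (81.9 ± 9.28), Tomm22 (80.0 ± 14.2) and Timm44 (72.7 ± 4.08). Each of these down to Tomm22 overlapped the next in its range over animals, and Timm44 did not overlap Timm10. Timm10 stood alone at 52.1 ± 6.27, above Timm21 (39.9 ± 3.95), Timm9 (37.7 ± 2.64) and the TOM pore gene Tomm40 (36.6 ± 0.987). Next came Tomm70a (25.0 ± 6.39), Timm17a (22.7 ± 1.41), Timm29 (22.0 ± 3.55) and Tomm20 (20.5 ± 1.73), then Timm17b (15.1 ± 1.24) and Timm22 (13.8 ± 1.24). The lowest of the tested genes were Tomm40l (9.61 ± 1.09), Tomm34 (8.53 ± 1.60), Timm8a1 (7.83 ± 1.69) and Timm10b (2.03 ± 0.668), and Timm10b overlapped none of the others. The 4 genes that did not reach the filter were Timm8a2 and Tomm20l, paralogues of Timm8a1 and Tomm20 with 0 to 3 reads per library, Tomm6os with 6 to 25 reads, and Tomm6, a small TOM subunit.

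Tomm6 was listed at 0 in 12 of the 14 libraries, and 84.2% of its exonic bases in the GENCODE M21 annotation are shared with Usp49, Gm21981 and Tomm6os. Use of strand in the counting is not stated, so reads in such overlaps cannot be assigned. The same holds for Tomm40l (64.3% of exonic bases shared with Nr1i3 on the opposite strand), Timm10b (22.1%) and Timm8b (15.6%), whose values are uncertain to that extent. In addition 9 of the genes have a near-identical copy elsewhere (at least 95% identity over at least 150 nt), 19 copies in all, of which 17 are annotated pseudogenes. Among them Timm23 has Gm10273 (99.9% over 1121 nt, up to 0.522 FPKM) and Tomm7 has Gm13450 (95.8% over 168 nt, up to 14.02 FPKM).

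For most import genes at 22 °C, the first comparison, the ranges of knockouts and controls overlapped. Of the 22 tested genes, 1 was lower in knockouts and 0 were higher by limma (Benjamini-Hochberg adjusted p under 0.05 over 13079 genes), and 7 had an unadjusted p under 0.05. Over all genes tested, 1.06% were lower and 0.91% higher, and 15.8% had an unadjusted p under 0.05. The gene that fell was Tomm7, a small subunit of the TOM complex that affects its assembly and is needed to hold the kinase PINK1 at the outer membrane. Its scaled FPKM was 107, 97.8, 82.1 and 93.8 in the 4 controls and 70.2, 64.1, 66.5 and 68.1 in the 4 knockouts. Every knockout lay below every control, at 1.41-fold lower (log2 fold change -0.49, SE 0.09, adjusted p = 0.02; fold changes are on the log2(scaled FPKM + 1) scale and understate those of low genes). That call was lost with the deposited FPKM unscaled, with only the 8 animals at 22 °C in the fit, and without control 1, control 2 or knockout 2 at 22 °C (adjusted p 0.00157 to 0.112 over 25 alternatives). Here and below, the alternatives include fits without an animal of a group not compared. Those fits leave the fold change as it was and alter only the pooled spread.

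Knockout ranges of scaled FPKM lay wholly below control ranges in 4 of the 22 genes at 22 °C (18.2%, against 4.53% of all genes tested). Besides Tomm7 these were the presequence receptor Tomm20 (15.9 to 18.2 against 18.8 to 22.9 scaled FPKM), Timm21 and Timm22. In deposited FPKM the knockout mean exceeded the control mean for Tomm20 (18.3 against 17.9) and Timm21 (35.6 against 34.8). Their separation therefore depends on scaling. The deposited knockout mean was lower for Tomm7 (72.5 against 82.9) and Timm22 (11.6 against 12.1). Ranges of deposited FPKM were not counted. The median log2 fold change of the 22 genes was -0.16, against 0.002 for all genes tested, with 18 of 22 below 0. The sign of this median depends on scaling: unscaled FPKM raised the median of all genes by 0.24 (log2), left 6 of 22 import genes below 0, put their median at 0.14, and called Tomm40 (0.44) and Tomm70a (0.40) higher and none lower, where 24.2% of all genes were called higher and 0.619% lower. Relative to the median of all genes the import genes' median was lower by 0.16 with the main scaling, 0.10 unscaled, 0.13 with equal totals over nuclear genes and 0.11 with quantile normalization. This gap was 0.28 without the 2 controls with titles starting with R, also 0.28 with sample weights, and 0.10 without knockout 2 at 22 °C.

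At 30 °C, the second comparison, 5 of the 22 genes were lower in knockouts and 0 were higher (22.7% lower, against 5.28% of all genes tested lower and 8.82% higher). They were the small TOM subunit Tomm7, the pore paralogue Tomm40l, the small Tim chaperone Timm9, and Timm21 and Timm44 of the TIM23 complex, and they span both membranes and the space between them. Without knockout 1 at 30 °C the call was kept for 3 of them (Tomm7, Timm9 and Timm21). In that fit 358 of all 13079 genes were lower, against 691 with every animal. Of the 22 genes, 20 were below 0 (all but Tomm34 and Tomm40), 10 had an unadjusted p under 0.05 (28.3% of all genes did), and the median was -0.28 against 0.065 for all genes. Unscaled FPKM raised the median of all genes to 0.31 and left 12 of 22 below 0, with 3 lower (Tomm7, Timm9 and Timm21) and 2 higher (Tomm34, 0.49, and Tomm40, 0.47), where 2.22% of all genes were called lower and 32.7% higher; 20 of 22 were below the median of all genes under this scaling, equal totals and quantile normalization. Ranges did not overlap, with knockouts lower, in 13 of 22 genes (59.1%, against 14.6% of all genes tested).

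Cell type markers moved in the same libraries. At 30 °C the summed level of the 8 brown adipocyte markers was 6868 to 8850 scaled FPKM in knockouts and 12580 to 15600 in controls, with 5 of 8 lower by limma and a median log2 fold change of -0.82. The 10 macrophage markers summed to 708 to 2007 in knockouts against 147 to 472 in controls, with 9 of 10 higher. Skeletal muscle markers differed widely between animals of 1 group (39.3 to 14440 in controls and 2185 to 9398 in knockouts at 30 °C), with 0 of 10 called. None of the tested endothelial (4 of 4), B cell (2 of 4) or liver (1 of 3) markers was called, and no marker was under 0.1 FPKM in every library. At 22 °C 1 of 8 brown adipocyte and 0 of 10 macrophage markers were called (13840 to 18120 against 17360 to 23180, and 114 to 240 against 68.9 to 103). The part of these shifts in the import gene results was not tested.

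Tomm7 was the import gene with the largest knockout effect at 30 °C. Its scaled FPKM was 69.2, 79.0 and 70.2 in controls and 39.8, 34.2 and 39.3 in knockouts, 1.90-fold lower (log2 fold change -0.93, SE 0.11, limma adjusted p = 0.000319). No animal of either 30 °C group overlapped the other, and the call was kept in all 25 alternatives. Its near-identical copy and Tomm7 itself were counted by rules that are not stated.

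**Figure D1:**
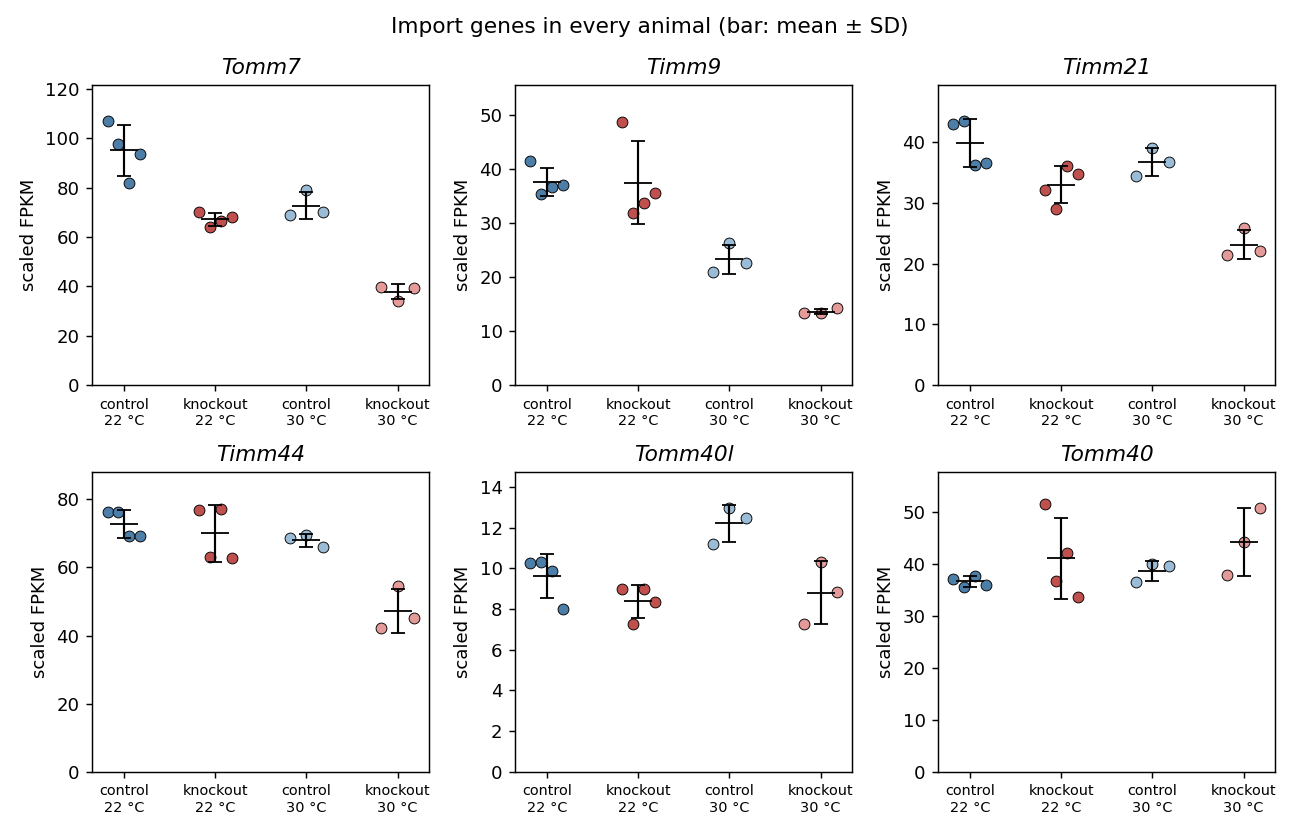
Scaled FPKM of 6 import genes in each animal (points), with group mean and SD (bars), for controls and knockouts at 22 °C (4 animals each) and 30 °C (3 animals each). Knockouts at 30 °C lie below all 30 °C controls for Tomm7 (34.2 to 39.8 against 69.2 to 79.0), Timm9, Timm21, Timm44 and Tomm40l, while the ranges of Tomm40 overlap.

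Among the other subunits of the outer membrane complex, the receptors gave no calls at 30 °C by the fit used throughout. Tomm22, the central receptor, had the smallest p of the 3 (log2 fold change -0.33, SE 0.13, limma adjusted p = 0.113). It was called with sample weights (-0.31, adjusted p = 0.0391), where 10.5% of all genes were lower, against 5.28% in the main fit. It was also called without the 2 controls with titles starting with R (adjusted p = 0.0211), where 7.2% of all genes were lower. Those controls were 22 °C animals, so leaving them out altered only the pooled spread at 30 °C. Tomm22 measured 63.7, 65.9 and 69.5 scaled FPKM in controls and 50.5, 51.8 and 55.1 in knockouts at 30 °C, without overlap. At 22 °C it measured 95.03, 88.7, 64.5 and 71.9 in controls and 80.9, 68.5, 73.3 and 71.6 in knockouts, where the ranges overlapped (-0.11, adjusted p = 0.707). There the 2 controls with titles starting with E (95.03 and 88.7) lay above every knockout, and the 2 with R titles (64.5 and 71.9) did not. Tomm20 gave -0.09 and Tomm70a, the receptor for carrier precursors, -0.07 at 30 °C, with adjusted p = 0.59 and 0.833; both were above 0 when FPKM was unscaled or scaled to equal totals. Tomm5, a small subunit beside Tomm7, gave -0.35 (adjusted p = 0.15) at 30 °C and -0.18 (0.569) at 22 °C.

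The pore genes lay on opposite sides of 0 at 30 °C, and only the paralogue was called. Tomm40l measured 11.2, 13.0 and 12.5 scaled FPKM in controls and 7.26, 10.3 and 8.85 in knockouts at 30 °C, 1.36-fold lower with no overlap (log2 fold change -0.44, SE 0.13, adjusted p = 0.0442). This call was the least stable of the 5, lost in 13 of 25 alternatives (adjusted p 0.00656 to 0.347), among them each of the fits without control 1, 2 or 3 and without knockout 1 or 3 at 30 °C. At 22 °C Tomm40l measured 10.3, 10.3, 9.87 and 8.01 in controls and 8.97, 7.25, 8.98 and 8.35 in knockouts, which overlapped. Tomm40 itself was 36.4 to 39.9 in controls and 37.7 to 50.7 in knockouts at 30 °C (0.18, SE 0.14, adjusted p = 0.456).

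Tomm34, which carries the Tomm name but is a cytosolic co-chaperone of Hsp70 and Hsp90, stood above 0 in both comparisons without a call. It measured 10.6, 9.13 and 10.6 scaled FPKM in controls and 13.6, 11.02 and 11.2 in knockouts at 30 °C, where the ranges did not overlap (0.21, SE 0.14, adjusted p = 0.365). At 22 °C it measured 7.14, 7.20, 9.50 and 10.3 in controls and 8.52, 10.4, 8.50 and 8.998 in knockouts (0.10, adjusted p = 0.756). The 2 lowest controls at 22 °C were those with titles starting with E and the 2 highest those with titles starting with R. All knockouts at 22 °C had E titles. Other genes given in every sample went the other way. Tomm7, Tomm22, Tomm40l, Timm21 and Timm44 had both E controls above both R controls, and Timm9 and Timm22 had a mixed order.

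In the intermembrane space, Timm9 was called lower in knockouts at 30 °C and was not called at 22 °C. Timm9 forms a ring with Timm10 that shields carrier precursors. Its scaled FPKM was 21.0, 26.3 and 22.6 in controls and 13.3, 13.3 and 14.2 in knockouts at 30 °C, 1.66-fold lower with no overlap (log2 fold change -0.73, SE 0.14, adjusted p = 0.00578), a call kept in all 25 alternatives. At 22 °C it measured 41.5, 35.5, 36.6 and 37.1 in controls and 48.8, 32.0, 33.7 and 35.6 in knockouts, with overlapping ranges (-0.02, SE 0.12, adjusted p = 0.951). The difference between these knockout effects, tested directly, was 0.70 (SE 0.19) with an unadjusted p of 0.0022 and an adjusted p of 0.198.

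The remaining small Tim chaperones were not called by that fit. Timm10 gave -0.30 (SE 0.24, adjusted p = 0.469) at 30 °C and 0.30 (SE 0.21, 0.537) at 22 °C, where knockout 1 had 107 scaled FPKM and the other 3 knockouts 48.8 to 60.2. Timm13, which pairs with Timm8a1, gave -0.55 (SE 0.18, limma adjusted p = 0.0623) at 30 °C, with 126 to 136 in knockouts and 175 to 217 in controls. It was called with sample weights (adjusted p = 0.0102) and without the 2 controls with R titles (0.0157), which are 22 °C animals. In these fits 10.5% and 7.2% of all genes were lower, against 5.28% in the main fit. Timm8b gave -0.24 (adjusted p = 0.257), and the X-linked Timm8a1 gave -0.004 (0.993).

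The 3 genes of the TIM22 complex, which inserts carriers into the inner membrane, were below 0 in both comparisons. Their log2 fold changes ran from -0.33 to -0.30 at 22 °C and from -0.28 to -0.24 at 30 °C, with 0 of 3 called in either; at 30 °C unscaled FPKM put Timm22 (0.03) and Timm29 (0.01) above 0. Timm22, the channel, measured 14.9, 12.3, 13.3 and 14.8 scaled FPKM in 22 °C controls and 10.7, 9.64, 11.3 and 11.3 in 22 °C knockouts, with no overlap (-0.33, SE 0.10, adjusted p = 0.12). It measured 10.1, 11.7 and 9.74 in controls and 7.99, 8.15 and 10.2 in knockouts at 30 °C, with overlap (-0.24, adjusted p = 0.21). Timm29 and Timm10b, the other subunits, gave -0.27 and -0.28 at 30 °C. Timm10b is so low (1.08 to 1.16 scaled FPKM in controls and 0.685 to 0.815 in knockouts at 30 °C) that the pseudocount of 1 shrinks its values. With a pseudocount of 0.1 it gave -0.53 (SE 0.27, adjusted p = 0.222) at 30 °C and -0.47 (SE 0.23, adjusted p = 0.337) at 22 °C, against -0.26 and -0.36 for Timm22.

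The TIM23 complex held 2 of the 5 genes that fell at 30 °C. Timm21, which tethers TIM23 to the TOM complex and to the respiratory chain, measured 34.5, 39.03 and 36.8 scaled FPKM in controls and 21.5, 25.9 and 22.0 in knockouts, 1.57-fold lower (log2 fold change -0.65, SE 0.12, adjusted p = 0.00399). At 22 °C it measured 43.1, 43.5, 36.2 and 36.7 in controls and 32.2, 29.1, 36.1 and 34.7 in knockouts, where the highest knockout lay just below the lowest control (-0.26, SE 0.10, adjusted p = 0.211). The 30 °C call was kept in all 25 alternatives.

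Timm44, which docks the mitochondrial Hsp70 motor to the channel, measured 68.5, 69.5 and 65.9 scaled FPKM in controls and 42.2, 54.4 and 45.0 in knockouts at 30 °C. The knockouts were 1.44-fold lower with no overlap (log2 fold change -0.52, SE 0.12, adjusted p = 0.0117), and the call was lost when FPKM was unscaled, with equal totals, and without knockout 1 at 30 °C (adjusted p 0.00119 to 0.161 over 25 alternatives). At 22 °C its levels were 76.3, 76.2, 69.2 and 69.2 in controls and 76.9, 63.0, 77.3 and 62.6 in knockouts, which overlapped fully (-0.06, adjusted p = 0.821). The other 4 genes of the complex at 30 °C were the receptor Timm50 (-0.34, adjusted p = 0.123), the channel partner Timm17a (-0.29, 0.139), Timm23 (-0.28, 0.223) and Timm17b (-0.05, 0.798), none of them called; unscaled FPKM put Timm23 (0.02) and Timm17b (0.24) above 0.

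**Figure D2:**
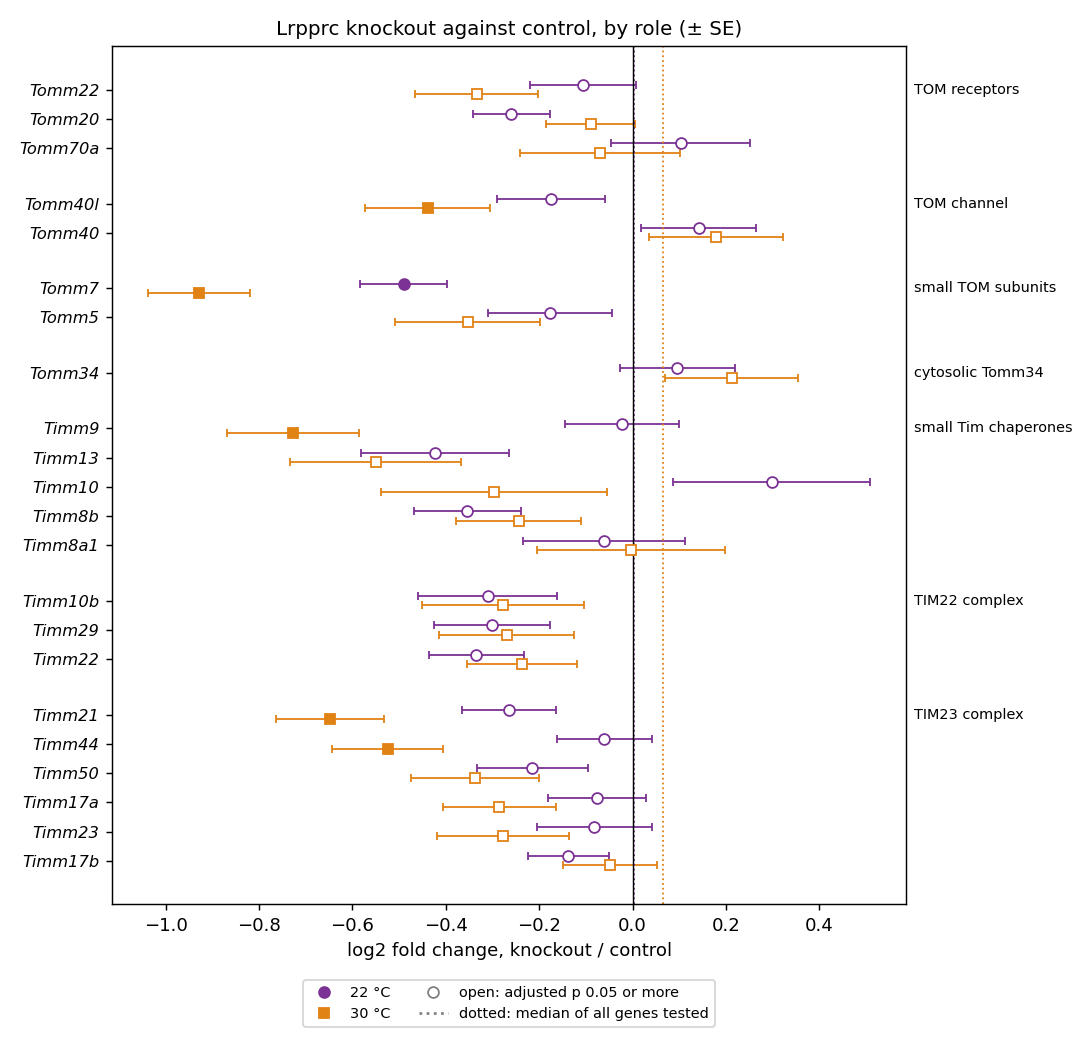
Log2 fold change of knockout against control (x axis, points, with SE as bars) for the 22 tested import genes, grouped by role, at 22 °C (circles) and 30 °C (squares); filled points have a limma adjusted p under 0.05 and dotted lines mark the median of all genes tested. At 30 °C 20 of 22 genes lie below 0, and Tomm7 is the lowest at both temperatures.

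Outer and inner membrane genes were set side by side as descriptions. At 22 °C the median log2 fold change was -0.14 for the 8 tested Tomm genes and -0.18 for the 14 Timm genes. For all genes tested it was 0.002. At 30 °C the medians were -0.21 and -0.28, against 0.065 for all genes tested. Called lower at 30 °C were 2 of 8 and 3 of 14, against 5.28% of all genes tested. The median of the outer genes minus that of the inner genes was 0.036 at 22 °C and 0.070 at 30 °C. When only TOM complex genes were set against TIM22 and TIM23 genes, leaving out Tomm34 and the small Tim chaperones, it was 0.039 and -0.056, and without knockout 1 at 30 °C it was -0.00353, so the sign at 30 °C depended on which genes and animals were counted. Within a library, the mean log2 level of the outer genes minus that of the inner genes was -0.08 to 0.001 in controls and -0.05 to 0.11 in knockouts at 22 °C, which overlap. At 30 °C it was -0.03 to 0.08 in controls and 0.10 to 0.21 in knockouts, which do not, though the highest control (0.0848) and lowest knockout (0.101) were close. This score counts Tomm34 as outer and the small Tim chaperones as inner, and it was not computed without them.

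Whether the knockout effect differed between temperatures was tested as an interaction. Limma called 0 of the 22 genes and 0.0% of all 13079 genes, and 4 of the 22 had an unadjusted p under 0.05 (Timm9, Tomm7, Timm44 and Timm21; 18.2%, against 13.0% of all genes); limma voom on recovered reads called 0 as well. The 4 differences, as the 22 °C effect minus the 30 °C effect, were 0.70 for Timm9, 0.44 for Tomm7, 0.46 for Timm44 and 0.39 for Timm21, with adjusted p from 0.198 to 0.31. The calls at 30 °C are therefore not shown to differ from 22 °C.

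More import genes were called between housing temperatures than between genotypes, and the same held for all genes tested. Temperature cannot be told apart from sex here. Cell type markers also moved with temperature without overlap in either genotype: brown adipocyte markers summed to 17360 to 23180 scaled FPKM at 22 °C against 12580 to 15600 at 30 °C in controls (13840 to 18120 against 6868 to 8850 in knockouts), and macrophage markers to 68.9 to 103 against 147 to 472 (114 to 240 against 708 to 2007). Their part in the temperature results was not tested. In controls 7 of the 22 genes were higher at 22 °C than at 30 °C and 1 was lower, where 18.2% of all genes tested were higher and 20.6% lower. Median log2 fold change was 0.23 for the 22 genes and -0.05 for all genes. The largest rises on the log2(scaled FPKM + 1) scale were Timm9 (35.5 to 41.5 scaled FPKM at 22 °C against 21.0 to 26.3 at 30 °C; log2 fold change 0.67, SE 0.13, limma adjusted p = 0.00236), Tomm70a (19.1 to 32.4 against 14.5 to 16.7; 0.60, adjusted p = 0.0116) and Timm10b (0.50, adjusted p = 0.0273). With a pseudocount of 0.1 the low gene Timm10b came first (0.77, SE 0.25, adjusted p = 0.0261). Timm17b, an X-linked gene, was lower at 22 °C (13.8 to 16.8 against 17.5 to 19.8; -0.30, adjusted p = 0.0231). The count moved with single animals, and so did that over all genes (2384 higher and 2688 lower of 13079 with every animal). Without control 1 at 22 °C 3 import genes were called, where 1860 of all genes were higher and 1968 lower. Without controls 1, 2 and 3 at 30 °C (each left out alone) 4, 5 and 4 import genes were called. Of all genes, 1775, 1605 and 1838 were then higher and 2021, 1890 and 1945 lower. Unscaled FPKM called 3 higher and 2 lower (13.3% and 24.5% of all genes), and quantile normalization 8 higher and 0 lower (20.8% and 17% of all genes).

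In knockouts 11 of the 22 genes were higher at 22 °C and 2 were lower, where 21.8% of all genes tested were higher and 29.4% lower. On the same scale Timm9 rose most (32.0 to 48.8 scaled FPKM against 13.3 to 14.2; log2 fold change 1.38, SE 0.13, adjusted p = 2.56e-05), followed by Tomm7 (64.1 to 70.2 against 34.2 to 39.8; 0.82, adjusted p = 8.32e-05) and Tomm70a (23.0 to 29.8 against 14.3 to 15.8; 0.77, adjusted p = 0.00175). Timm10b was also higher (0.47, adjusted p = 0.028), and with a pseudocount of 0.1 its change (0.83, SE 0.25, adjusted p = 0.0138) was next to that of Tomm7 (0.83). Timm17b (-0.39, adjusted p = 0.00412) and Tomm34 (-0.35, adjusted p = 0.0401) were the genes that were lower. Quantile normalization called 15 higher and 1 lower, where 32.1% of all genes were called higher and 22.4% lower. The control and knockout contrasts use different animals. By role, 4 of 6 TIM23 genes were higher in knockouts (Timm17a, Timm21, Timm23 and Timm44) and 0 of 6 in controls, a difference between genotypes that is the interaction above and was not called.

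**Figure D3:**
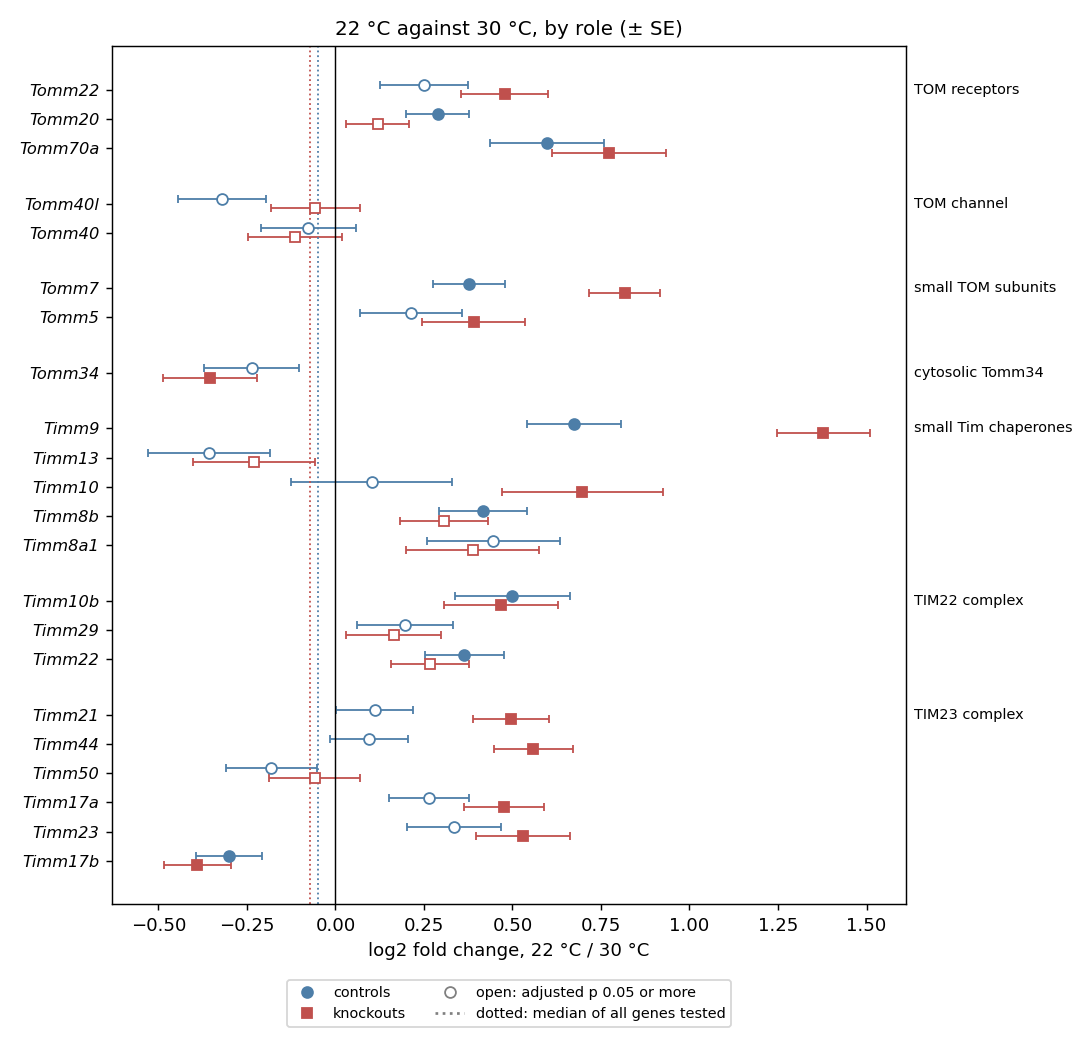
Log2 fold change of 22 °C against 30 °C (x axis, points, with SE as bars) for the 22 tested import genes by role, in controls (circles) and knockouts (squares); filled points have a limma adjusted p under 0.05 and dotted lines mark the median of all genes tested. Timm9 is the highest in both genotypes (0.67 and 1.38), and Timm17b lies below 0 in both.

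Ratios of 2 genes within a library do not depend on scaling. They were compared by exact two-sided permutation tests over animals, 24 tests in all, none of which passed adjustment (smallest adjusted p = 0.196); the smallest p possible is 0.0286 for 4 against 4, 0.0571 for 4 against 3 and 0.1 for 3 against 3. Tomm40 was 3.17 times Tomm40l (geometric mean) in 30 °C controls and 5.03 times in 30 °C knockouts, log2 1.66 ± 0.04 against 2.33 ± 0.22 (SD, n = 3), with no overlap (exact p = 0.1). Timm9 to Timm10, a pair chosen after its values were seen, was -1.06 ± 0.09 against -1.52 ± 0.26 (log2, SD, n = 3), also without overlap (exact p = 0.1). Timm17a to Timm17b, alternative subunits of the TIM23 channel, was 0.59 ± 0.20 (SD, n = 4) in 22 °C controls and -0.003 ± 0.14 (SD, n = 3) in 30 °C controls, and 0.66 ± 0.16 (SD, n = 4) and -0.26 ± 0.25 (SD, n = 3) in knockouts, with no overlap within either genotype (exact p = 0.0571 for each). Timm9 to Timm10 likewise did not overlap between temperatures, at -0.46 ± 0.11 (SD, n = 4) in 22 °C controls and -0.79 ± 0.29 (SD, n = 4) in 22 °C knockouts against the 30 °C values above (exact p = 0.0571 for each).

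**Figure D4:**
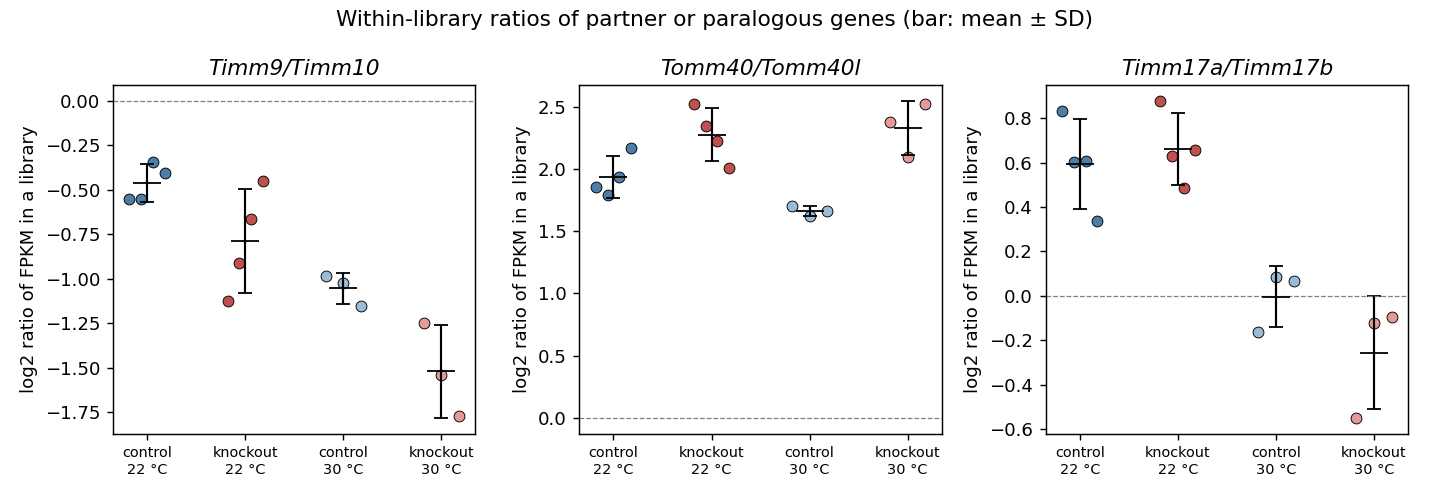
Log2 ratio of the FPKM of 2 genes within each library (points), with group mean and SD (bars), for Timm9 to Timm10, Tomm40 to Tomm40l and Timm17a to Timm17b. Knockouts at 30 °C lie below 30 °C controls for Timm9 to Timm10 and above them for Tomm40 to Tomm40l, and Timm17a to Timm17b is higher in all 22 °C libraries (0.34 to 0.88) than in all 30 °C libraries (-0.55 to 0.09).

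A list of 23 further import genes (sorting and assembly, oxidative folding, the Hsp70 motor, processing peptidases and insertases) was counted in the same way. At 22 °C 0 of 23 were called by limma, where 0.91% of all genes were higher and 1.06% lower. Limma voom called 0 as well, where 0.668% of all genes were higher and 0.729% lower. Both counts of 0 are near these shares. An unadjusted limma p under 0.05 was found for 7 of 23, against 15.8% of all genes. The median was -0.06 against 0.002 for all genes. Unscaled FPKM called 6 higher (24.2% of all genes) with a median of 0.24, and equal totals 1 higher (2.95% of all genes) with 0.08. Quantile normalization called 1 higher (0.711% of all genes), sample weights 4 lower (3.85%) and the fit without the 2 R controls 1 lower (1.42%). The median was above 0 without control 1 (0.01) or control 2 (0.004) at 22 °C. At 30 °C 5 were lower (21.7%, against 5.28% of all genes) and 0 higher (8.82% of all genes), with a median of -0.28 against 0.065 for all genes and 22 of 23 below 0. Unscaled FPKM put that median at 0.01 against 0.31 for all genes and called 1 lower and 1 higher (2.22% and 32.7% of all genes). The largest change was in Immp2l, an inner membrane peptidase (26.2, 40.3 and 27.6 scaled FPKM in knockouts against 49.6, 59.02 and 61.7 in controls; log2 fold change -0.86, adjusted p = 0.00897). Dnajc15, a J-protein of the import motor, was 126, 153 and 127 against 200, 224 and 227 (-0.68, adjusted p = 0.0091). Grpel1, the nucleotide exchange factor of the motor, was 30.3, 36.4 and 39.8 against 49.7, 61.3 and 51.5 (-0.60, adjusted p = 0.0288). No knockout reached the level of a control in any of these 3 genes. Oxa1l, the insertase facing the matrix, was 38.7, 41.7 and 41.3 against 59.1, 59.6 and 58.8 (-0.53, adjusted p = 0.005), and the outer membrane insertase Mtch2 was 45.7, 55.2 and 53.1 against 70.4, 77.8 and 75.2 (-0.53, adjusted p = 0.0423), also without overlap. The count was 3 without control 1, control 2, control 3 or knockout 1 at 30 °C (each left out alone). Of all 13079 genes, 428, 364, 419 and 358 were then lower, against 691 with every animal. It was 8 without control 4 at 22 °C (854 of all genes lower) and 10 with sample weights (10.5% of all genes lower). The gene above 0 at 30 °C was Hspa9, the motor Hsp70 itself, chosen for mention after its values were seen (0.44, adjusted p = 0.256, and 0.75, adjusted p = 0.0882, at 22 °C). The marker shifts given above were in the same 30 °C libraries, and their part here was not tested.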

How the data were processed

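The authors deposited 1 table of FPKM per gene and animal (fragments normalised to length and depth), identified by Ensembl gene; the build mm9 is named per the submitters' processing notes, and the aligner, counter and use of strand are not given in the sources used here. Symbols and exon overlaps came from GENCODE M21 and promoters from RefSeq (GRCm38.p6), so no coordinates of the deposited build are given. Low FPKM values are whole multiples of 1 read, which gave depth and whole reads for 99.6% of the 13079 genes that passed the filter (tolerance 0.02 reads).

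FPKM was divided by the median ratio to the geometric mean over 10049 nuclear genes at 1 FPKM or more in every library (factors 1.05 to 1.20 in knockouts, 0.823 to 0.947 in controls). Nuclear genes were used because mitochondrial transcripts can take up a different part of the reads in each genotype. Deposited FPKM of nuclear genes would then shift between genotypes. That part was not tested here. The log2(scaled FPKM + 1) values of all 14 animals were fitted with limma 3.58.1 in R 4.3.3 (1 mean per group, moderated with a trend). Two-sided p-values took a Benjamini-Hochberg correction across the 13079 genes, and an adjusted p under 0.05 was called. The scripts were tested on simulated data. Ratios and Lrpprc used exact permutation tests (scipy 1.17.1), and copies of transcripts were found with blastn 2.17.0. Each library is 1 animal, and replicates differed by more than counting error (chi-square per degree of freedom 12.2 to 98.6). Read numbers cover counting error only.

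The genes and lists were chosen with earlier results of these data known. Given in every sample are genes called in a knockout comparison or in the interaction and, in role groups with none, the gene with the smallest p at 30 °C. Also named are up to 3 called genes in each direction for temperature, by ranges, and the other import genes called in a knockout comparison. Tomm40, Timm10 and Timm13 values were added after they were seen. Alternatives covered the pseudocount (0.1), the filter, the scaling, the animals fitted, the trend, sample weights, the 2 controls with titles starting with R, and each animal in turn. limma voom on recovered reads was chosen after seeing the data.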

Additional observations from a re-analysis of the deposited data

Results flagged for a closer look

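In 3 of 44 groups of 4 animals examined (22 import genes in 22 °C controls and 22 °C knockouts), 1 animal stood far from the other 3 by Dixon's test at the 95% level; chance flags about 1 in 20 groups. Timm13 was 213 scaled FPKM in control 4 at 22 °C, and the nearest control had 135.9. Timm8b was 77.29 in knockout 1 at 22 °C, against 60.74 in the nearest knockout. Tomm5 was 132.6 in the same knockout 1, against 98.68 in the nearest. None of the 3 genes was called in the knockout comparison at 22 °C by the fit reported above. With sample weights Timm8b was called lower (log2 fold change -0.50, limma adjusted p = 0.0104), where 3.85% of all genes were lower, against 1.06% in the main fit.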

How the results depend on the processing

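The 22 °C knockout count of 1 became 2 (both higher) with FPKM as deposited, where 24.2% of all genes were called higher and 0.619% lower. It became 0 with only the groups compared, where 39 of all 13079 genes were higher and 44 lower. With sample weights it was 5, all lower (3.08% of all genes higher and 3.85% lower). It was 0 to 1 when each animal was left out. The 30 °C count of 5 became 3 with equal totals over nuclear genes (17% of all genes higher and 3.13% lower). It was 3 to 6 over left-out animals. The control temperature count of 8 became 5 with FPKM as deposited (13.3% of all genes higher and 24.5% lower). It was also 5 with only the groups compared (1814 of all genes higher and 2280 lower). With sample weights it was 16 (26.4% of all genes higher and 31.5% lower), and it was 3 to 10 over left-out animals. Counts over all genes moved with the settings and the left-out animals as well. Outer minus inner at 30 °C (0.070) became 0.198 with no filter and -0.056 for the complexes alone, and was -0.00353 to 0.118 over left-out animals.

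Signs of uncalled genes turned with scaling. At 22 °C, as deposited, they were Timm17a 0.22, Timm17b 0.15, Timm21 0.032, Timm23 0.22, Timm44 0.24, Timm50 0.087, Timm8a1 0.21, Timm9 0.27, Tomm20 0.030, Tomm22 0.20, Tomm40l 0.10 and Tomm5 0.13. With equal totals they were Timm17a 0.063, Timm23 0.063, Timm44 0.083, Timm8a1 0.067, Timm9 0.12 and Tomm22 0.038, and with quantile normalization Timm23 0.09, Timm44 0.0015 and Timm9 0.012. Tomm70a was -0.10 with sample weights and -0.20 without the R controls. At 30 °C, as deposited, they were Timm17b 0.24, Timm22 0.034, Timm23 0.020, Timm29 0.013, Timm8a1 0.25, Timm8b 0.050, Tomm20 0.19 and Tomm70a 0.21, with equal totals Timm17b 0.10, Timm8a1 0.13, Tomm20 0.056 and Tomm70a 0.076, and with sample weights Timm8a1 0.10. Over left-out animals, Timm8a1 ran from -0.22 to 0.060, Timm9 from -0.15 to 0.046 and Tomm70a from -0.011 to 0.23 at 22 °C, and Timm8a1 from -0.13 to 0.081 at 30 °C.

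Over single genes, 705 left-out-animal values kept direction and call, 26 lost the call, 1 gained it and 10 turned sign. For the other alternatives these were 517, 14, 13 and 36. The kept values include uncalled genes that stayed uncalled. They also include fits without an animal of a group not compared, which cannot change the fold change and alter only the pooled spread. The kept counts therefore do not measure how stable the calls were. Causes were not tested. No paired analysis was possible because the labels give no replicate numbers. Genes with under about 3 reads, such as Timm8a2 and Tomm20l, cannot be compared at this depth.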

Other observations

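Partner ratios chosen after their values were seen gave further values at 30 °C. Timm8a1 to Timm13, which form a chaperone pair, had a log2 ratio of -4.60 ± 0.21 in knockouts and -5.15 ± 0.14 in controls (SD, n = 3), without overlap (exact two-sided permutation p = 0.1, adjusted p = 0.196 over 24 tests). Timm23 to Timm44, the channel and the docking subunit of its motor, had 1.11 ± 0.10 and 0.85 ± 0.07 (SD, n = 3), also without overlap (exact p = 0.1, adjusted p = 0.196). At 22 °C both ratios overlapped between genotypes, at -3.92 ± 0.44 against -4.27 ± 0.43 and 1.07 ± 0.11 against 1.09 ± 0.13 (SD, n = 4).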
